A study of Sorghum bicolor with 14 samples.

Results

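Transcript levels in the middle internode of the sorghum stem were compared between plants in moderately dry soil and plants in soil that had dried less. All plants were the grain variety M35-1, a landrace grown in India in the post-rainy season on stored soil water. They stood 1 to a pot, and watering ended at the flag leaf stage, when the last leaf below the panicle unfolds. Stem tissue was taken at booting, when the panicle still lies inside the leaf sheath, once the soil moisture meter read about 13% (group D1) or about 7% (group D2). A further group of pots, D3, was taken at about 2%. The labels describe no pot group that was kept watered, so D1 is the mildest drying and not an unstressed control. The same series holds field-grown plants of the variety, taken at floral initiation, at booting and at the grain filling stages called milky stage and soft dough. The comparison uses 4 of the 14 libraries, 2 for each moisture reading. The labels do not say how many plants went into a library.

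Each group has 1 deposited FPKM column (fragments scaled to the length of the transcript and to all mapped fragments), which both of its libraries name in their labels. It was therefore taken as the authors' pooled value. No difference below has a replicate check, and no standard deviation or p-value is given. A locus was taken as measured when D1 or D2, whichever was higher, reached 1 FPKM, which left 16865 of the 32726 loci in the drought table. The lowest such value inside the limit was 1.00018 FPKM and the highest one outside it was 0.99953 FPKM. There were 202 loci from 1 to 1.1 FPKM, and 257 from 0.9 to 1 FPKM were left out. The difference was log2(FPKM + 1) at D2 minus that at D1, and a locus was called higher or lower at D2 when it reached 1 log2 unit. The loci carry sorghum annotation IDs. None of the 34088 different IDs occurred in the RefSeq gene table for the assembly Sorghum_bicolor_NCBIv3, so no gene name or function is given, and the labelled tissue could not be checked against marker genes.

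When soil dries, plants commonly raise the hormone abscisic acid, close their stomata, make compounds and proteins that protect cells from water loss, and slow growth. The sorghum internode is both a growing support organ and a store of sugar, which later feeds the grain. Booting is a sensitive time for drought in cereals. Which of these processes the loci below belong to was not tested, since the IDs could not be paired with names.

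Most measured loci of the internode had similar levels in the D1 and D2 columns. Of the measured loci, 93.9% differed by less than 1 log2 unit and the quartiles of the differences were -0.28 and 0.24. The calls were 201 loci higher at D2 (1.19% of those measured) and 829 lower (4.92%). The median difference over all measured loci was 0.00, and the lower tail was the longer one. The lowest 5% of loci were below -0.99, whereas the highest 5% were above 0.59. Beyond 2 log2 units there were 41 loci higher and 112 lower, and beyond 3 there were 12 and 18. Just inside the call limit, between 1 and 1.1, lay 55 higher and 164 lower loci. Just outside it, between 0.9 and 1, lay 53 and 204. In bulk tissue, fewer cells of a type and less RNA per cell cannot be told apart.

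**Figure D1:**
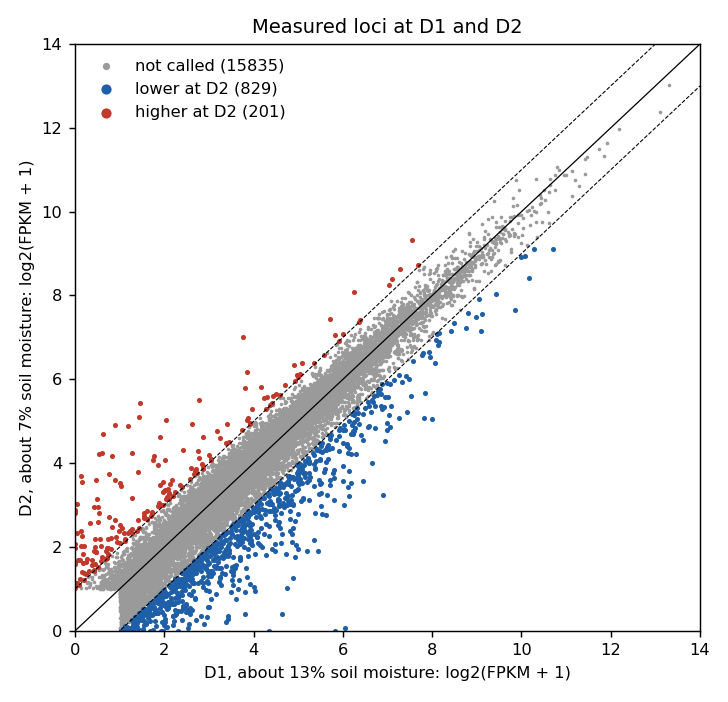
Level of each measured locus at D1 (x axis) and at D2 (y axis), both as log2(FPKM + 1), with equality as a solid line and a difference of 1 as dashed lines. Most loci lie between the dashed lines, and the 829 called lower outnumber the 201 called higher.

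The called loci held a small part of the transcripts. Of the FPKM sum, the lower loci made up 4.57% in the D1 column, 1.66% in D2 and 2.85% in D3. The higher loci made up 0.314%, 0.939% and 0.651%. Their starting levels also differed. Among the lower loci the median was 10.6 FPKM at D1 and 2.91 at D2, against 12.0 and 11.8 for all measured loci. Among the higher loci it was 1.74 FPKM at D1 and 8.15 at D2. A locus that is called higher must start below its D2 level by the rule, so these medians are a description. Calls became rarer with the level averaged over both columns on the log2(FPKM + 1) scale. From loci averaging under 2 FPKM over both columns to loci at 100 FPKM or more, higher calls went from 2.91% to 0.613% of the loci and lower calls from 8.14% to 2.30%. The size of this decline depends on the measure of level. Of loci with 100 FPKM or more in the higher column alone, 0.878% were higher and 4.05% lower. Lower calls outnumbered higher ones in each of the 5 level classes, at 73.6% to 83.3% of the calls.

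A few of the most abundant internode transcripts were among the calls. Of 181 loci at 500 FPKM or more in the higher column, 11 were lower at D2 (6.08%) and 1 was higher (0.552%), shares near those of all measured loci (4.92% and 1.19%). These abundant loci were picked after their values were seen and are given by position as printed in the file, with no genome build named. The most abundant lower locus, on chromosome 1 from 12013863 to 12014695, went from 1669 FPKM at D1 to 547 at D2 and 479 at D3. A locus on chromosome 3 from 74109033 to 74113053 had 1154, 341 and 628 FPKM. One that carries a pair of IDs on chromosome 1, from 8265619 to 8274286, was lowest at D2, with 1087, 491 and 2454 FPKM. The first thus had a D3 value close to its D2 value, and the last a D3 value well above both others. A lower locus on chromosome 7, from 5884243 to 5885271, had 1236, 549 and 401 FPKM. A lower locus with several IDs on chromosome 3, from 7023223 to 7066321, had 1008, 485 and 547 FPKM. Their D3 values were also nearer to D2 than to D1. Among the higher loci, the most abundant lay on chromosome 3 from 70714984 to 70715693 and went from 187 FPKM at D1 to 641 at D2 and 276 at D3. In the separately normalized field columns it was between 1.18 and 14.2 FPKM, under all 3 pot values. Another on chromosome 3, from 67427643 to 67434548, had 155, 398 and 57.8 FPKM, so that D2 was the highest of the drying pots and D3 the lowest. A higher locus on chromosome 5, from 877610 to 879037, had the same order, with 204, 425 and 118 FPKM.

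The largest changes were at loci close to silent in 1 of the columns. Loci were ranked here if they had 1 ID, 300 bp or more of printed range and 5 FPKM or more at D1 or D2. Loci listed at 0 in either column were left out of the ranking. Sobic.010G031800 (chromosome 10, 2563884 to 2566760) had the largest rise, 4.07 log2 units, from 0.535 FPKM at D1 to 24.8 at D2. It stayed near that value at D3, with 22.7 FPKM. Sobic.005G169200 (chromosome 5, 64809823 to 64811829) was next at 4.04, going from 0.846 FPKM at D1 to 29.3 at D2 and back to 4.84 at D3. In the field it was listed at 0 at booting and was at most 1.87 FPKM, at soft dough. The largest fall was that of Sobic.009G043900 (chromosome 9, 4198823 to 4200683), at -5.97, from 64.8 FPKM at D1 to 0.0504 at D2 and 0.174 at D3. In the field columns it had 3.82 FPKM at booting and less at the other stages, so of the 7 columns D1 alone was above that value. The second, Sobic.007G037000 (chromosome 7, 3458785 to 3467155), differed by -4.24, from 23.9 FPKM at D1 to 0.316 at D2 and 0.529 at D3. Along the field stages it went from 21.5 FPKM at floral initiation through 10.2 and 0.0107 to 28.1 at soft dough. The locus was thus near 0 at D2, D3 and milky stage and present in the other 4 columns. One locus at 20 FPKM or more was listed at 0 in the other column, on chromosome 4 from 7597117 to 7627268. It had 55.4 FPKM at D1 and 58.8 at D3 with a listed 0 at D2 between them, and an exact 0 can be a failed estimate. Its difference of -5.82 would otherwise place it between the 2 falls above. In all, 12 of the higher loci were listed at 0 at D1 and 10 of the lower ones at D2.

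The direction of the difference went with the length of the locus. Among 529 loci with a printed range under 1000 bp the median difference was -0.41, and it moved through -0.28, -0.05 and 0.05 to 0.10 among 3454 loci of 8000 bp or more. Lower calls were 18.9% of the shortest class and 2.46% of the longest, and higher calls 3.97% and 0.955%. Of the 829 lower loci, 324 (39.1%) had a range under 2000 bp, against 56 of the 201 higher ones (27.9%) and 12.9% of all measured loci. The trend was present at each level of abundance. Loci under 2000 bp had a median difference of -0.42 where they averaged under 2 FPKM and of -0.19 at 100 FPKM or more, where loci of 8000 bp or more had 0.03 and 0.01. With each difference centred on the median of loci of like range, an alternative chosen after seeing the data, 235 loci were higher and 701 lower. In the other contrast against D1, D3 minus D1, short loci were also low, with a median of -0.26 under 2000 bp and 0.05 at 8000 bp or more. D3 minus D2, which does not use D1, had 0.05 and -0.06. Both contrasts against D1 share that column. Trends with range were also present between field columns, with 0.19 and -0.07 for booting minus floral initiation and -0.12 and 0.07 for soft dough minus milky stage. The part of the range trend in the calls beyond the centring was not tested. The lowest values also differed. Among loci of up to 3000 bp, the percentile 1 of FPKM above 0 times kilobases of printed range was taken as the size of a step. Its inverse was about 56.4 at D1, 84.8 at D2 and 60.1 at D3. Read this way the D1 and D3 columns have coarser steps than D2, but the spacing between values was not measured. The depth itself is unknown.

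**Figure D2:**
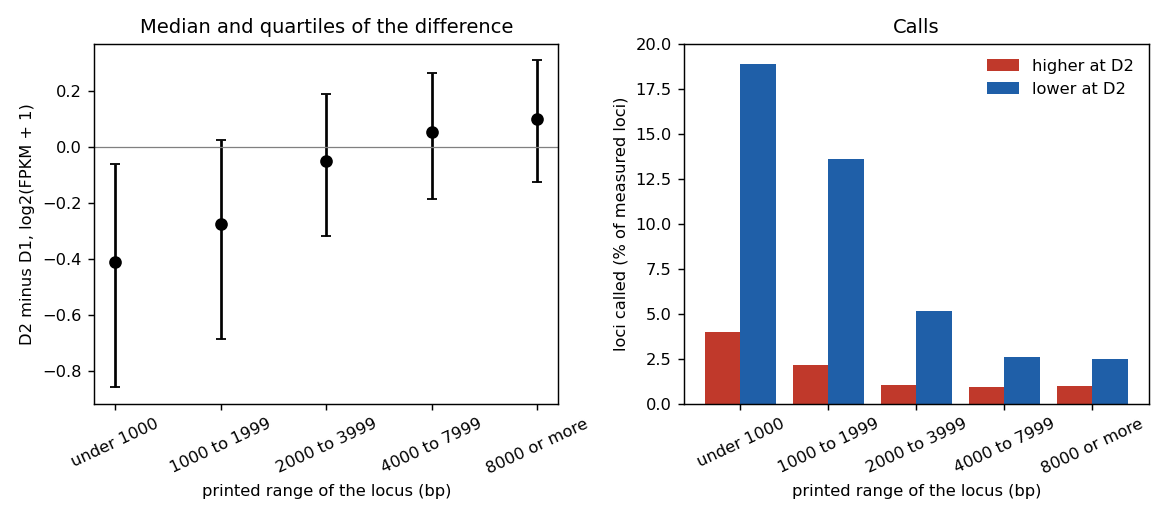
Left, median (point) and quartiles (bars) of the D2 minus D1 difference in log2(FPKM + 1) for 5 classes of printed range. Right, share of the loci of each class called higher or lower at D2. The median moves from -0.41 in the shortest class to 0.10 in the longest, while lower calls go from 18.9% to 2.46%.

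At about 2% soil moisture, a column the calls did not use, loci lower and higher at D2 stood differently. Of the 829 lower loci, 286 (34.5%) were at D3 at or below their D2 value, 381 (46.0%) lay between D2 and D1, and 162 (19.5%) were back at or above D1. Nearer to D2 than to D1 on the log2 scale were 519 of them (62.6%). Of the 201 higher loci, 32 (15.9%) were at D3 at or above D2, 106 (52.7%) lay between and 63 (31.3%) were at or below D1. Nearer to D2 were 79 (39.3%). D3 has no column other than D1 and D2 to be set against here, and loci picked for an extreme D1 or D2 value tend to look less extreme in another column. These shares were not counted over all measured loci, so they have no background beside them. Measured loci under 2000 bp, a range that 39.1% of the lower loci had, were also low in D3 minus D1, at a median of -0.26. Its part in the shares was not tested.

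The field columns come from other plants and were likewise not used for the calls. Of the measured loci, 12426 (73.7%) were found in the development table with identical IDs and range, 620 of them lower and 136 higher at D2. The lower loci most often had their field maximum at booting. Of the 620, 250 (40.3%) were highest at booting and 196 (31.6%) at soft dough, where uncalled loci had 23.4% and 24.8%. Their median was 8.01 FPKM at floral initiation and then, stage by stage, 13.1, 7.74 and 10.9. In the pots their median was 10.2 FPKM at D1, 2.73 at D2 and, in D3, 4.52, of which the call fixes the order of D1 and D2. Uncalled loci had medians between 12.1 and 12.5 FPKM at the 4 field stages. The tables were normalized separately, and the models inside a range may differ between them.

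**Figure D3:**
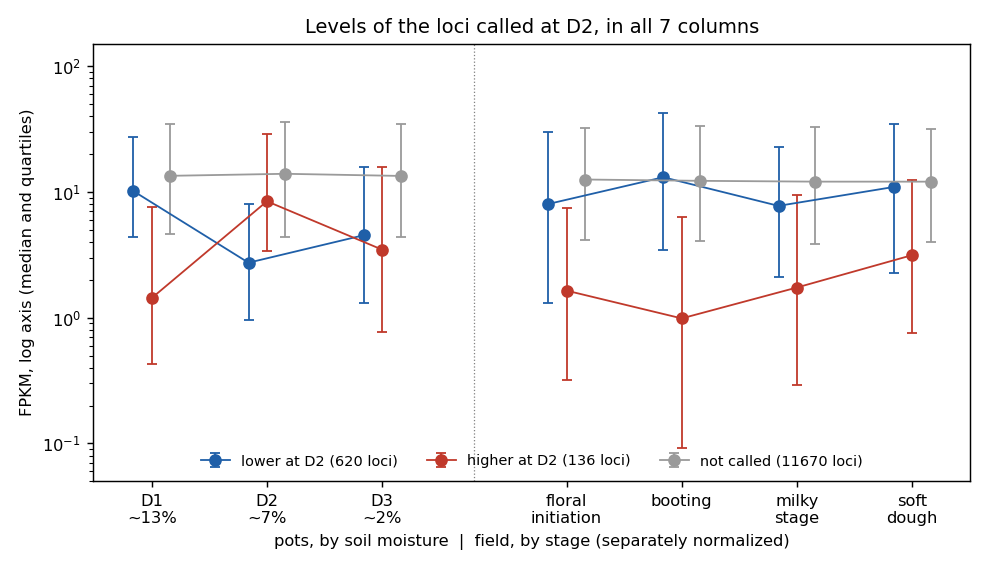
Median (points) and quartiles (bars) of FPKM, on a log axis, of the matched loci called lower (620), called higher (136) and not called (11670), in the 3 pot columns at left and the 4 field columns at right. The lower loci have their highest field median at booting, 13.1 FPKM, and the higher loci their lowest, 0.987 FPKM, while uncalled loci stay level.

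The same pattern appeared in the field steps taken one by one. The first 2 steps use the booting column that also entered the field maxima, and the last 2 share milky stage. The step counts are therefore not separate from the maxima or from each other. Between floral initiation and booting, 180 of the 620 lower loci (29.0%) were called higher at booting, against 4.56% of all matched loci. Only 24 (3.87%) were called lower there, against 2.99%. From booting to milky stage, 243 (39.2%) were called lower, against 12.4% of all matched loci, and 70 (11.3%) higher, against 9.49%. From milky stage to soft dough, 146 (23.5%) were called higher, against 5.54%, and 54 (8.71%) lower, against 3.54%. The lower loci were therefore called more often than the background in the direction that makes booting high and milky stage low, and close to the background in the opposite direction for the first 2 steps. Both a call up to booting and a call down to milky stage were found at 104 of them (16.8%), against 279 (2.25%) of all matched loci. Seen from the other side, those 104 were 37.3% of the loci with that field course. Loci lower at D2 were 4.99% of all matched loci. They were 31.7% of the loci called higher at booting and 6.47% of those called lower there. At milky stage they were 15.7% of the loci called lower and 5.94% of those called higher, and at soft dough 21.2% of the loci called higher and 12.3% of those called lower.

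The field courses were also counted within classes of range and level, because length moved with both. Short loci were lower at D2 than at D1 and also higher at booting than at floral initiation, where the median was 0.19 under 2000 bp and -0.07 at 8000 bp or more. This is the same pairing of directions as in the lower loci, and its part in their field course within a class of range was not tested. Among loci of 2000 bp or more, 80 of the 343 lower loci (23.3%) were called higher at booting, against 2.69% of all matched loci of that range, and 147 (42.9%) lower at milky stage, against 11.1%. Among loci under 2000 bp the shares were 36.1% against 15.3%, and 34.7% against 20.2%. Lower loci with at least 20 FPKM in the higher pot column had 33.5% called higher at booting, against 4.01%, and those under 20 FPKM had 26.9%, against 4.96%.

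The 136 matched loci that were higher at D2 had another field course. Their median was lowest at booting, 0.987 FPKM, beside 1.64 at floral initiation, 1.74 at milky stage and 3.14 at soft dough. Booting was the lowest stage for 48 of them (35.3%) and the highest for 19, where uncalled loci had 21.9% and 23.4%. At booting 27 (19.9%) were called lower than at floral initiation, against the 2.99% above, and 17 (12.5%) higher. At milky stage 29 (21.3%) were called higher than at booting and 17 (12.5%) lower, the latter close to its background of 12.4%. At soft dough 34 were called higher and 14 (10.3%) lower than at milky stage, against 5.54% and 3.54%. These loci thus exceeded the background in both directions at the first and the last step, and in the upward direction only at the middle one. Their pot medians were 1.43 FPKM at D1 and 8.42 at D2, an order that the call fixes. The balance of the first field step differed by class, given here against all matched loci of the class. Under 20 FPKM in the higher pot column, 22.9% of 96 were called lower at booting and 7.29% higher, against 3.84% and 4.96%. At 20 FPKM or more, 12.5% of 40 were lower and 25% higher, against 1.79% and 4.01%. At 2000 bp or more the shares were 17.2% and 6.90%, against 2.79% and 2.69%. Under 2000 bp they were 24.5% and 22.4%, against 4.11% and 15.3%.

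**Figure D4:**
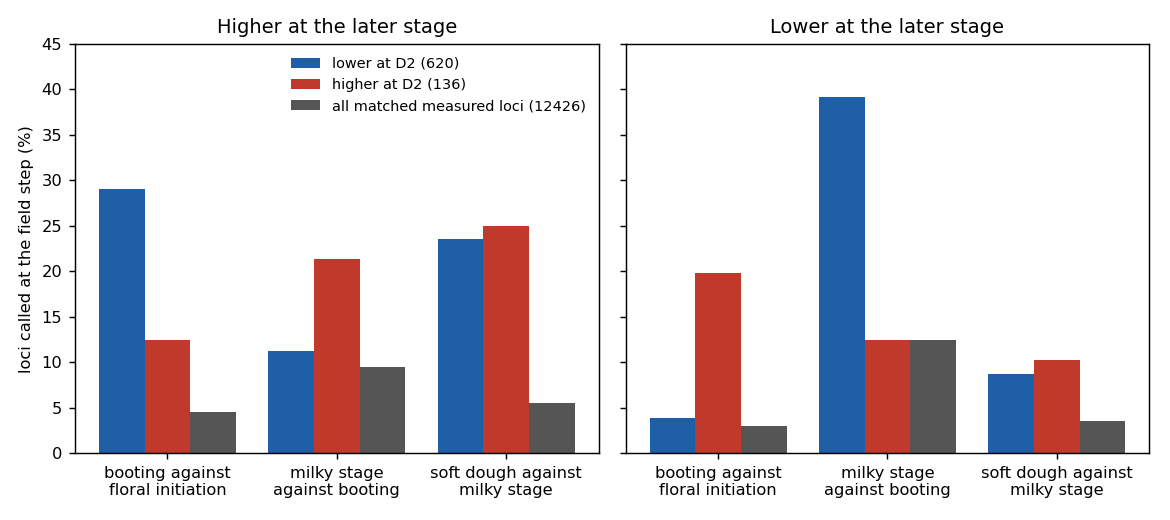
Share of matched loci called higher (left) or lower (right) at the later stage of each field step, for loci lower at D2, loci higher at D2 and all matched measured loci. Loci lower at D2 reach 29.0% for a rise to booting and 39.2% for a fall to milky stage, where all matched loci have 4.56% and 12.4%.

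Loci called in 1 direction were found beside each other along the chromosomes. With 1 locus kept per printed range, 129 of 791 lower ranges (16.3%) had a lower range as the next measured one on either side, against 9.25% of uncalled ranges. Of 189 higher ranges, 25 (13.2%) had a higher neighbour, against 2.22% of uncalled ones. Neighbours can share fragments where their models overlap, and whether counting used the strand is not stated in the labels. The comparison was not matched for range, which was under 2000 bp at 39.1% of lower and 11.3% of uncalled loci. By chromosome, lower calls were rarest on chromosome 8, at 26 of 866 measured loci, and most frequent on chromosome 7, at 5.54%. Higher calls ran from 0.793% on chromosome 1 to 3.07% on chromosome 5, where 24 loci were higher and 33 lower, the most even balance of the 10 chromosomes.

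Runs of at least 3 neighbouring calls numbered 3 in the higher direction and 5 in the lower. No background was counted for the number of runs. Most of the 17 loci in the lower runs had a printed range under 2000 bp. Of all measured loci 12.9% had such a range, and its part in the runs was not tested. The limit of 3 was chosen after seeing the values, and with the minimum of 4 in the stated rule a single run is left. The run of 5, on chromosome 9 from 3551576 to 3606537, spanned 12.5 to 71.1 FPKM at D1, 2.42 to 17.6 at D2 and 2.66 to 28.3 at D3. Its levels at D2 overlapped those at D1, though each locus was lower, with differences between -2.32 and -1.19. A second lower run on chromosome 9, from 4145056 to 4200683, ends in Sobic.009G043900. Its other members went from 2.40 to 0.490 FPKM and from 1.44 to 0.0149 FPKM, and all 3 stayed under 0.6 FPKM at D3. On chromosome 5, from 53367770 to 53727995, 3 lower loci spread over a long stretch went from 173, 27.8 and 5.55 FPKM at D1 to 36.5, 3.98 and 1.59 at D2. On chromosome 2, a lower run from 72580072 to 72589152 had medians of 5.85, 1.51 and 0.960 FPKM from D1 to D3, so it was lowest at D3. The other run there, from 66550990 to 66555074, had 8.87, 2.35 and 6.83 FPKM and was lowest at D2.

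The higher runs also differed from each other at D3. On chromosome 10, from 2553243 to 2576676, the run that holds Sobic.010G031800 had values of 0.0959 to 0.535 FPKM at D1 and 2.30 to 24.8 at D2, with no overlap. At D3 its first and second loci remained at 8.93 and 22.7 FPKM, and its last was at 0.266. On chromosome 9, from 1055470 to 1077940, 3 loci went from at most 0.340 FPKM at D1 to 6.77, 4.02 and 1.17 at D2, and were at most 0.544 at D3. These loci were thus above 1 FPKM at D2 alone among the pots. On chromosome 1, from 65803284 to 65830411, 3 loci had medians of 4.38, 18.8 and 4.73 FPKM.

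**Figure D5:**
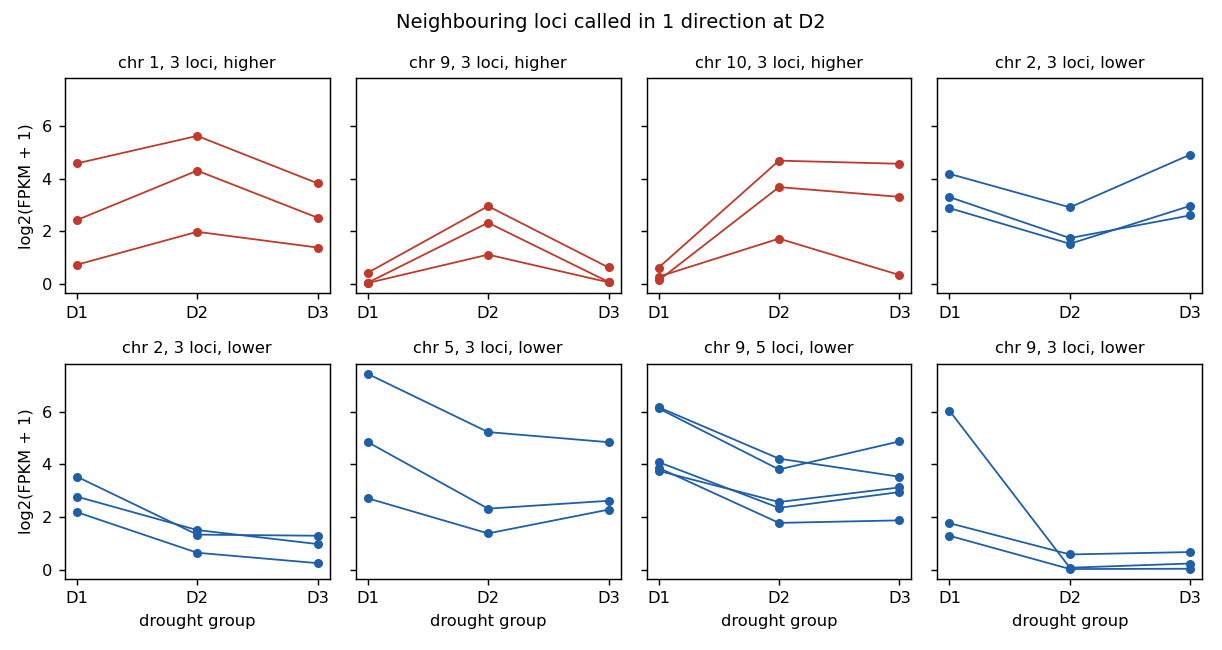
Level, as log2(FPKM + 1), of each locus in the 8 runs of neighbouring calls at D1, D2 and D3, 1 panel per run and 1 line per locus. All 3 higher runs peak at D2, and the chromosome 10 run keeps a pair of its loci high at D3, at 8.93 and 22.7 FPKM.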

How the data were processed

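RNA of the middle internode was sequenced from 14 libraries, of which the 2 of D1 and the 2 of D2 form the comparison. Per the labels' protocols, a kit for stranded libraries of total RNA was used. The submitters' processing notes list HISAT2 2.0.5, Bowtie2 2.2.9, Cuffdiff and cutadapt 1.8.1, with no order or role. Neither the build nor a filter is stated there. The authors deposited FPKM values, 1 column per group, per the file headers. The drought and the development table were normalized separately. Library totals are not used here, so the depth is unknown.

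Differences of log2(FPKM + 1) were computed with Python 3.11.15, pandas 2.3.3 and numpy 2.4.6, figures with matplotlib 3.10.9. A call needed 1 FPKM in the higher column and a difference of 1. The added 1 FPKM shrinks the change of low loci on this scale. The length of a locus is that of its printed range, introns included. Named loci are the 2 largest rises and the 2 largest falls with 1 ID, 5 FPKM and 300 bp, not listed at 0. The IDs could not be paired with names, so the 40 gene lists drawn up were not run. The members, lists and rules were chosen with earlier results of these data known.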

Additional observations from a re-analysis of the deposited data

How the results depend on the processing

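Of 104 counts and shares recomputed under 13 alternatives, 77 kept within 1.5 times the count or within the 95% binomial interval (Wilson) of the share, and 27 moved. Higher and lower loci became 334 and 1348 with a pseudocount of 0.1, 64 and 320 with a pseudocount of 5, and 41 and 112 with a limit of 2 log2 units. A filter at 5 FPKM left 130 higher, since fewer loci enter. Leaving out ranges under 2000 bp left 505 lower. That range held 39.1% of the 829 lower loci, against 12.9% of all measured loci. Lower loci as a share of the calls became 83.3% (pseudocount 5), 75.6% (columns rescaled to the same sum), 77.3% (the 50 most abundant loci left out), 73.2% (limit of 2), 74.9% (centred by range) and 77.7% (ranges under 2000 bp left out). The share of lower loci nearer D2 at D3 became 59.1% (pseudocount 0.1), 70.9% (pseudocount 5), 80.4% (limit of 2) and 58.8% (ranges under 2000 bp left out), and that of higher loci 48.4% (pseudocount 5) and 53.7% (limit of 2). The share of lower loci called higher at booting became 23.8% (pseudocount 5), 39.0% (limit of 2) and 23.3% (ranges under 2000 bp left out). The share lower at milky stage became 44.3% (pseudocount 0.1) and 53.7% (limit of 2), and that higher at soft dough 27.4% and 45.1%. A larger pseudocount shrinks every difference by construction; the cause of the other shifts was not tested. No scaling moved the median difference by more than 0.0758. The differences of the 4 named loci kept their sign and stayed past 1, which is no check, since they were picked as the largest. The alternatives for gene lists were not run. No replicate could be left out, since each column pools its libraries. No paired analysis was possible because the columns carry no replicate numbers.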
